A study of Caenorhabditis elegans with 2 samples.

Results

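The ceh genes and the genes of the Hox cluster encode homeodomain proteins, a class to which CEH-82 itself belongs. Their regions of the genome were examined for sites recovered with eGFP-tagged CEH-82 by ChIP-seq. The set comprised 68 of the 19973 protein-coding genes of the Ensembl WBcel235 annotation. Of these, 63 were chosen because their names start with ceh-, among them the Hox gene ceh-13, and the other 5 were the Hox genes lin-39, mab-5, egl-5, php-3 and nob-1. The remaining 19905 protein-coding genes served as the comparison.

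All data came from 1 group of 2 biological replicates, each of whole C. elegans larvae of the L3 stage and of both sexes, pooled. The larvae were of strain OP212, which carries the mutation unc-119(ed3) and the transgene ddEx58, and the target was CEH-82 fused to enhanced green fluorescent protein (eGFP). The labels do not say which promoter or which cells express the fusion. The group has no second condition, and untagged larvae were not analysed here, so the values describe where signal was recovered in these samples. Whether 2 samples of whole animals share a site in the same cells cannot be seen in such lists.

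A homeodomain is a compact DNA-binding fold that typically contacts short AT-rich words with the core TAAT. Hox proteins give cells their identity along the body axis, and in C. elegans their genes lie in a loose, broken cluster on chromosome III. They often act with PBC-class partners, and homeobox genes of many classes regulate one another in development, which makes these loci natural places to ask whether CEH-82 was recovered.

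The authors deposited a list of 748 reproducible peaks and 3 longer candidate lists that mix peaks with background, with 30000 entries called on the pooled samples, 30000 in replicate 1 and 22611 in replicate 2. Each entry carries the authors' signal value, which ranks entries within a list, and a −log10 q value, where q is the caller's adjusted p-value. The signal values ran from 4.94 to 330 in the pooled list, from 3.91 to 259 in replicate 1 and from 2.00 to 84.2 in replicate 2, and they are not on a common scale. The reproducible peaks occupied the same intervals as the 748 strongest pooled entries, with a lowest signal of 26.9, so the pooled list continues the reproducible one downwards. A gene was counted when the summit of an entry lay between 2 kb upstream of its start and its end. An entry among the strongest 10% of its list is called a top-10% entry, which in the pooled list means a signal of at least 13.9.

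The sequences under the strongest pooled summits are shown for the members highest in signal whose summit was met by a summit of each replicate within 100 bp, and for 3 further Hox genes. ceh-5 also met that rule, and its sequence is not shown. Each is on the strand of the gene, 5′ to 3′, from the ce11 reference, with every TAAT or its complement ATTA in capitals. For ceh-38, whose summit lies in an annotated 5′ UTR, the parts of the peak interval before and after the UTR exon are shown. Stretches for ceh-92 and lin-39 are shortened for the same reason.
ceh-38 upstream (chrII:6951465-6951525, plus strand): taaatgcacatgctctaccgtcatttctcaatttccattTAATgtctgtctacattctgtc
ceh-38 intronic (chrII:6951705-6951804, plus strand): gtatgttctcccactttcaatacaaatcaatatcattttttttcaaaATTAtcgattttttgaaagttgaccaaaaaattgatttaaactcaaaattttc
ceh-13 (chrIII:7554814-7554914, plus strand): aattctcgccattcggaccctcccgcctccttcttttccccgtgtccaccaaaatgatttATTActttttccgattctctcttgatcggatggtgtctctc
lin-39 (chrIII:7534806-7534899, minus strand): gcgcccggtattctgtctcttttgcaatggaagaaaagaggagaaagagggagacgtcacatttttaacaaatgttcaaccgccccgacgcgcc
mab-5 (chrIII:7780608-7780708, minus strand): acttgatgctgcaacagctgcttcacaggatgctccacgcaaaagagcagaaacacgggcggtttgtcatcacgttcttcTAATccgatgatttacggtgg
egl-5 (chrIII:7815848-7815948, plus strand): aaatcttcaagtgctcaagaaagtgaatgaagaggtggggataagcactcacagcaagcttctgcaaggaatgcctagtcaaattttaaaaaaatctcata
ceh-92 (chrIII:11580626-11580693, plus strand): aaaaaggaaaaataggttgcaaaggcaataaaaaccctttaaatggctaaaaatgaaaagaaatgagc
ceh-31 (chrX:3071492-3071592, minus strand): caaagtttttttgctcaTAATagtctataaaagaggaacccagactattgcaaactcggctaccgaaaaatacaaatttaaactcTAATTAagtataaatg
Of these windows, that of ceh-31 held 3 matches, those of ceh-13 and mab-5 and each stretch of ceh-38 held 1, and those of lin-39, egl-5 and ceh-92 held none.

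A single member, ceh-38, had a reproducible summit. This is 1.47% of the 68 members (95% interval 0.0372 to 7.92), against 4.73% of other protein-coding genes. In the pooled candidate list 48 members had a summit (70.6%, 58.3 to 81), against 64.9% of other genes. Replicate 1 placed a summit at 43 members (63.2%), against 65.1% of other genes, and replicate 2 at 48 members (70.6%), against 60.2%. With 60.2% to 65.1% of other genes meeting the same rule in the candidate lists, a candidate at a member is by itself the ordinary state of a gene. The intervals are exact Clopper-Pearson intervals and cover counting error only. Since the group has no control samples and gene sets were not tested, these shares are descriptions.

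Stronger candidates were no more common at the members. A top-10% entry lay at 8 members in the pooled list (11.8%, 5.22 to 21.9), against 14.6% of other genes. The count was also 8 in replicate 1, against 14.4% of other genes, and 8 in replicate 2, against 11.1%. A pooled summit met by a summit of each replicate within 100 bp lay at 12 members (17.6%, 9.47 to 28.8), against 19.2% of other genes. The interval of the members' share holds the share of other genes in each of these 4 counts and in that of the pooled list.

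**Figure D1:**
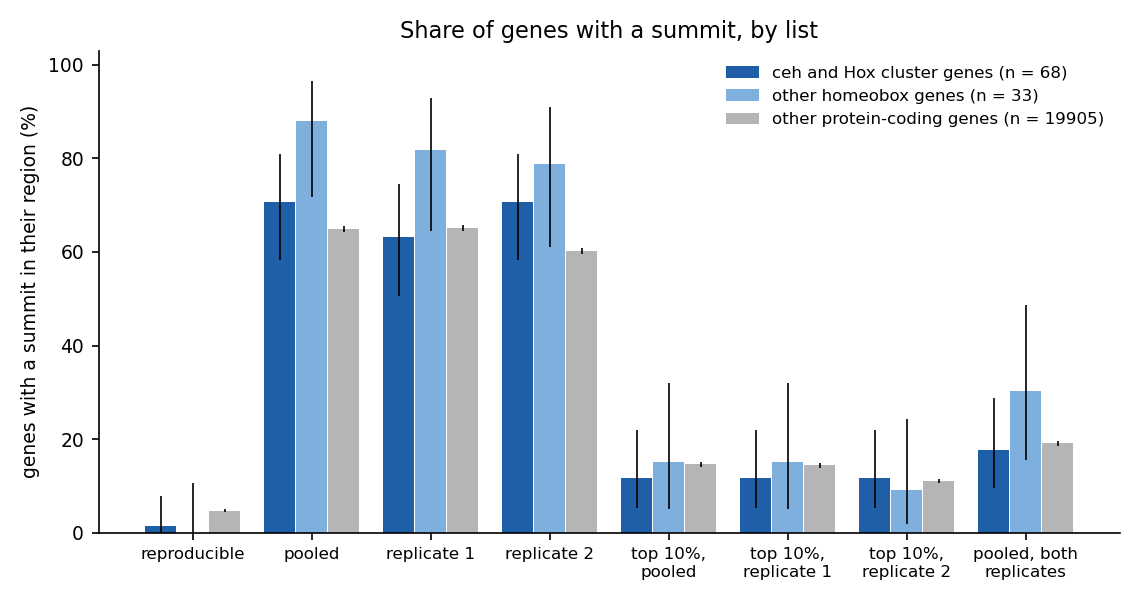
Percent of genes with a summit in their region under each call rule, for the 68 ceh and Hox cluster genes, the 33 other homeobox genes and all 19905 other protein-coding genes, which include those 33; lines are exact 95% intervals that cover counting error only. The members stand at 1.47% for reproducible summits and at 70.6% for pooled candidates, against 4.73% and 64.9% of other protein-coding genes.

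The heights of the members' candidates followed those of other genes. The median of the strongest pooled signal per gene was 8.67 over the 48 members with a candidate, against 8.98 over other such genes. In replicate 1 it was 7.29 for members against 7.32 for other genes, and in replicate 2 it was 3.76 for members against 3.63 for other genes. The median of the highest pooled −log10 q per gene was 0.488 for members with a candidate, against 0.548 for other such genes. Members carried 0.274 pooled summits per kb of region, against 0.311 for other genes. In replicate 1 the density was 0.264 per kb for members against 0.309 for other genes, and in replicate 2 it was 0.238 for members against 0.236 for other genes. The regions of members had a median length of 4.85 kb, against 4.03 kb for other genes, and longer regions catch more summits. Among regions under 5 kb, 19 of 37 members had a pooled summit (51.4%), against 55.8% of other genes of that length. Among regions of 5 to 10 kb the count was 26 of 28 (92.9%, 76.5 to 99.1), against 80.9%. The replicates differed there, since replicate 1 had a summit at 19 of the 28 members (67.9%, 47.6 to 84.1), against 81% of other genes, and replicate 2 at 24 (85.7%, 67.3 to 96), against 75.2%. All 3 members over 10 kb had a pooled summit, against 95% of other genes.

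The other 33 homeobox genes, which have names of their own such as unc-62, had candidates more often and of similar height. They had no reproducible summit. A pooled candidate lay at 29 of the 33 (87.9%, 71.8 to 96.6), against 64.9% of all protein-coding genes outside the ceh and Hox set, and the median strongest signal was 8.42. Their regions were longer, with a median of 6.86 kb. A top-10% pooled entry lay at 5 of them (15.2%), against 14.6% of all protein-coding genes outside the set. The strongest candidates were at nsy-7, unc-62, unc-42 and irx-1. The 78 cytosolic ribosomal protein genes differed from both sets by far more. Of these, 34 had a reproducible summit (43.6%), 60 had a top-10% pooled entry, and the median strongest signal was 26.1.

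**Figure D2:**
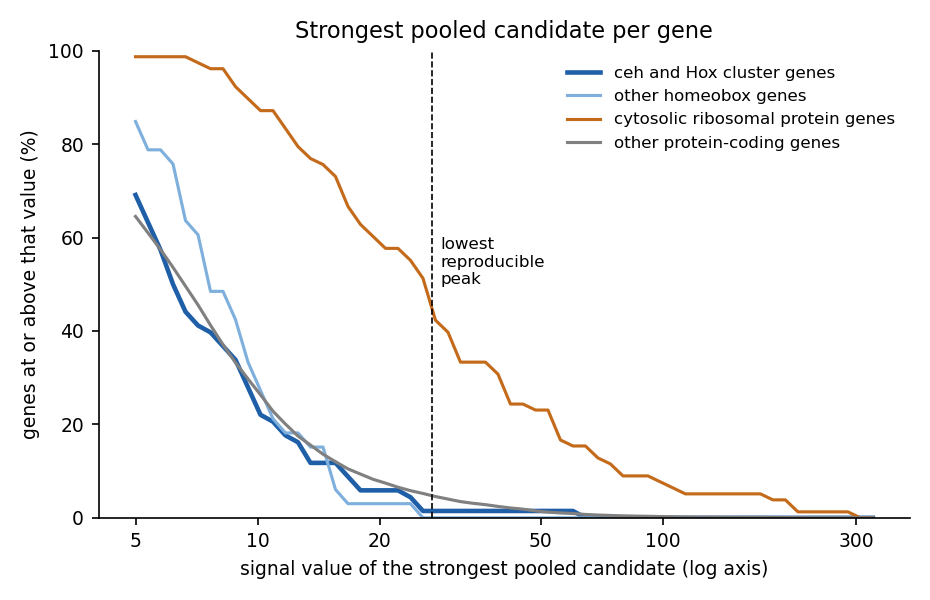
Percent of genes (vertical axis) whose strongest pooled candidate reaches the signal value on the horizontal log axis; genes without a candidate count as below every value, and the dashed line marks the lowest reproducible signal, 26.9. The lines of the ceh and Hox cluster genes and of other protein-coding genes run close together, while that of the ribosomal protein genes lies well above both.

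The strongest site in the set was that of ceh-38 (WBGene00000459; chromosome II, 6951526 to 6955409, plus strand). It encodes a ONECUT-type protein, which joins a CUT domain to its homeodomain, and CUT proteins drive genes used by all neurons in C. elegans. The reproducible interval spanned 6951465 to 6951804, with a summit 109 bp after the gene start, in a 5′ UTR exon and 5 bp before the start of an annotated transcript. Its pooled signal of 62.7 ranked 116 of the 748 reproducible peaks. The signal was 44.4 in replicate 1 and 17.4 in replicate 2, at summits 3 and 6 bp away, and in both lists the entry lay among the strongest 2.5%. The 50 bp to each side of this summit held no TAAT. The other 4 pooled summits of ceh-38 had signals of 4.97 to 9.88.

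The other CUT genes carried weaker entries. Where they had a pooled candidate, the strongest was met within 100 bp by replicate 1 and not by replicate 2. Over all 6 CUT genes, however, 5 had a summit in replicate 1 and 6 in replicate 2. At ceh-21 the strongest pooled signal was 23.05, at 1031 bp before the start. That summit lay 82 bp from the start of the neighbouring gene T26C11.9, so it cannot be given to ceh-21 alone. Replicate 1 had 22.7 there and replicate 2 had no summit within 100 bp. At ceh-39, which acts as an X-chromosome signal in the worm's sex determination, the pooled signal was 15.6 at 158 bp before the start. Replicate 1 had 12.5 there and replicate 2 again had no summit within 100 bp. ceh-48, a neuronally expressed CUT gene, reached 9.75 in the pooled list at 1769 bp before the start. Replicate 1 had 9.50 there and replicate 2 had no summit within 100 bp. The strongest entry of replicate 2 at ceh-48, 2.61, lay elsewhere, in an exon 1221 bp after the start. ceh-49 reached 5.79, and ceh-41 had summits in replicate 2 only, all of which also fell in the region of ceh-21. Of the 6 CUT genes named in the annotation 5 had a pooled candidate and 3 a top-10% entry, with a median strongest signal of 15.6. The shares of other protein-coding genes were 64.9% and 14.6%, and their median was 8.98.

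All 6 Hox genes had a pooled candidate, and none had a reproducible peak. Their strongest signals had a median of 11.5, and their regions held 23 pooled summits, or 0.553 per kb. Of the 8 groups into which the members were sorted, Hox and CUT genes had the highest densities and medians, a description without a test. All 6 Hox genes lie on chromosome III. There 76.1% of genes outside the set had a pooled candidate, the median of their strongest signals was 9.77 and their density was 0.360 per kb, so the chromosome itself stands high.

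ceh-13 (WBGene00000437; III, 7555660 to 7558041, plus strand) is the anterior, labial-like Hox gene. It had 6 pooled summits, the strongest with a signal of 24.8 at 796 bp before the start. The entry ranked 868 in the pooled list, below the 748 reproducible peaks, and had the list's highest −log10 q of 3.437. That value is a ceiling shared by 1367 of the 30000 pooled entries, and ceh-38, lin-39 and ceh-21 reached it too. Replicate 1 had 18.4 at the same base, and replicate 2 had 6.84 at 91 bp away. A further pair of intronic summits, at 1226 and 1889 bp, was also met by both replicates, with pooled signals of 6.28 and 10.8.

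lin-39 (WBGene00003024; III, 7528641 to 7536632, minus strand) acts in the mid-body, where it is needed for vulval precursor cells. Its strongest pooled entry, in an intron 1783 bp after the start and 44 bp before an internal transcript start, had a signal of 24.7. Replicate 1 had 23.5 at the same base, whereas the nearest summit of replicate 2 was 517 bp away with a signal of 2.44. A second intronic summit at 3594 bp had 14.2 in the pooled list, and both replicates met it, with 9.57 in replicate 1 and 4.78 in replicate 2. Replicate 2 had its own strongest entry, 7.14, at 3843 bp in an exon, and another of 5.97 at 198 bp before the start, where neither of the other lists had one. The pooled list and replicate 1 thus had their strongest entry at the same base, and replicate 2 had its strongest elsewhere.

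mab-5 (WBGene00003102; III, 7776835 to 7783454, minus strand), which patterns the posterior body and cell migrations there, had 7 pooled summits. The strongest, 13.5 at 2796 bp in an intron, had 8.21 in replicate 1 and no summit of replicate 2 near it. The upstream summit at 736 bp before the start had 12.2 in the pooled list, 10.3 in replicate 1 and 2.05 in replicate 2. That value in replicate 2 is close to the lowest of its list.

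The posterior genes were weaker. egl-5 (WBGene00001174; III, 7814374 to 7817141, plus strand), an Abdominal-B-like gene of the tail, had 3 pooled summits, the strongest 9.44 in an intron, with 8.89 in replicate 1 and none near it in replicate 2. nob-1 (WBGene00003779), needed for posterior patterning of the embryo, had 1 pooled summit of 9.07, with 5.13 in replicate 2 and none in replicate 1. Its neighbour php-3 (WBGene00004024) had 1 of 5.49 in a coding exon, and neither replicate had a summit in its region.

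**Figure D3:**
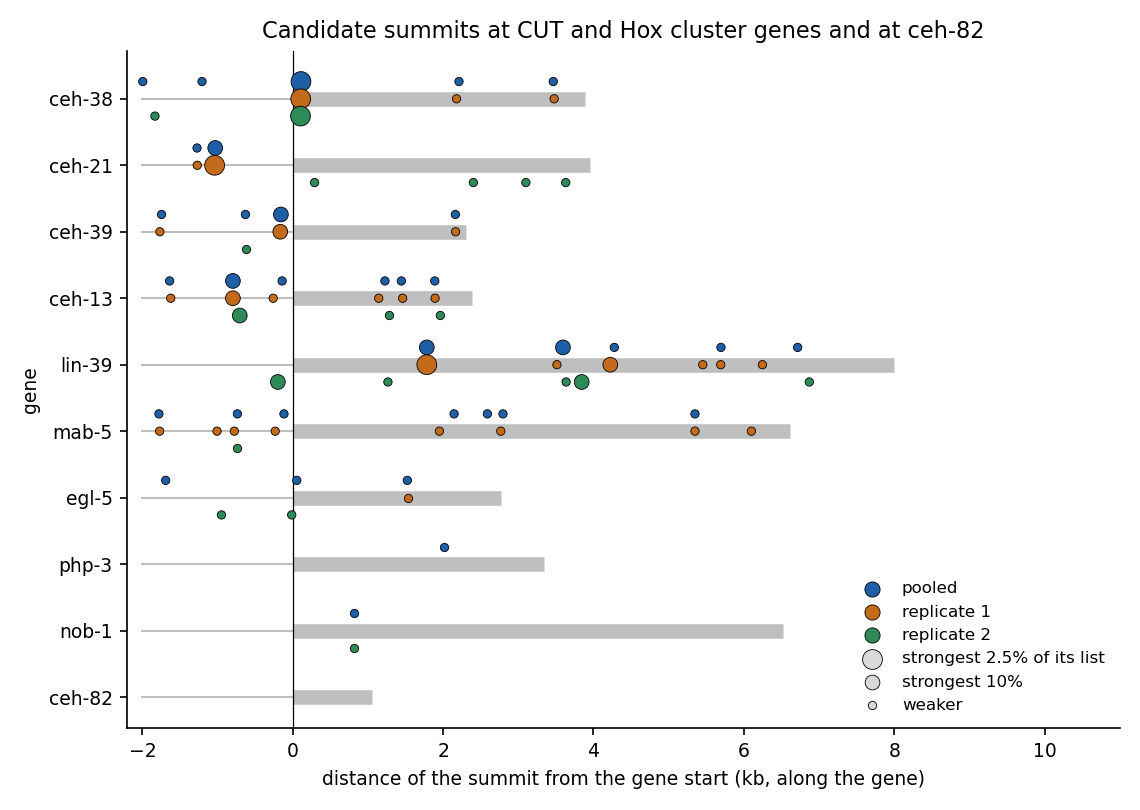
Positions of candidate summits along CUT and Hox cluster genes and ceh-82, in kb from the gene start; thin lines are the 2 kb upstream and thick bars the gene. Within each row pooled summits are on top, replicate 1 in the middle and replicate 2 at the bottom, and the largest circles are entries among the strongest 2.5% of their list; only at ceh-38 do all 3 lists hold such an entry, and ceh-82 has no summit.

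Among Hox partners of the PBC class, ceh-20, the main Pbx-type gene, had a pooled signal of 8.75 in an intron, with 6.64 in replicate 2 at 18 bp and no summit of replicate 1 within 100 bp. ceh-60, known for its part in yolk protein expression, reached 5.42 in the pooled list and 3.28 in replicate 2. ceh-40 had no pooled candidate. None of the 3 had a top-10% entry in the pooled list.

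The ANTP-class and NK-like members beyond the Hox cluster had a pooled candidate at 10 of 14 and a pooled top-10% entry at none. The shares of other protein-coding genes were 64.9% and 14.6%. ceh-31, a BarH-type gene, had the highest, 12.5 at 1120 bp before the start, with 8.30 in replicate 1 and 3.97 in replicate 2. ceh-23, expressed in a few neurons and located near egl-5 on chromosome III, had 11.6 at 313 bp before the start, with 10.5 in replicate 1 and no summit of replicate 2 in its region. Of the 6 paired-like members all had a pooled candidate, with a median of 6.21, against 64.9% of other protein-coding genes and a median of 8.98. Replicate 1 had a summit at 3 of these members and replicate 2 at 4, against 65.1% and 60.2% of other genes. Among the paired-like members ceh-8, a Rax-type gene, had the highest pooled signal. It was 16.5 in the 3′ UTR at 5268 bp, where the start of col-63 is nearest. Replicate 1 had 25.9 at 136 bp from it and replicate 2 had 12.7 at 246 bp, outside the region. ceh-36, an OTX-type gene of sensory neurons, had 9.57 at 538 bp before the start with 8.15 in replicate 1.

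The 3 POU and LIM members and the 3 sine oculis-like members all had a pooled candidate, against 64.9% of other protein-coding genes. Homeobox genes outside the set are not part of this count. ceh-6, a POU gene that acts in the excretory cell, had 13.3 in a coding exon at 369 bp. Replicate 2 had 8.15 at 122 bp from it, and replicate 1 had nothing within 2 kb of it. ceh-18, a POU gene of gonadal sheath cells, had 7.72. ceh-32, a sine oculis-like gene of the head, had 10.4 in an intron with 8.70 in replicate 1, and ceh-33 had 5.97. None of these genes reached the pooled top 10%.

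Of the 27 remaining ceh genes 13 had a pooled candidate, against 64.9% of other protein-coding genes. ceh-5 had 16.96 at 1769 bp before the start, with 15.3 in replicate 1 and 5.41 in replicate 2. A nearer summit at 544 bp had 14.9, with 4.50 and 4.76 in replicates 1 and 2. ceh-92 had 16.8 at 924 bp before the start, with 10.98 and 2.31 in the replicates, and this summit was 198 bp from the start of Y66D12A.7. ceh-19, which acts in a pharyngeal neuron, had 12.8 in an intron with 7.50 in replicate 1. ceh-100 had 8 pooled summits over a region of 23.5 kb, the strongest 11.3.

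**Figure D4:**
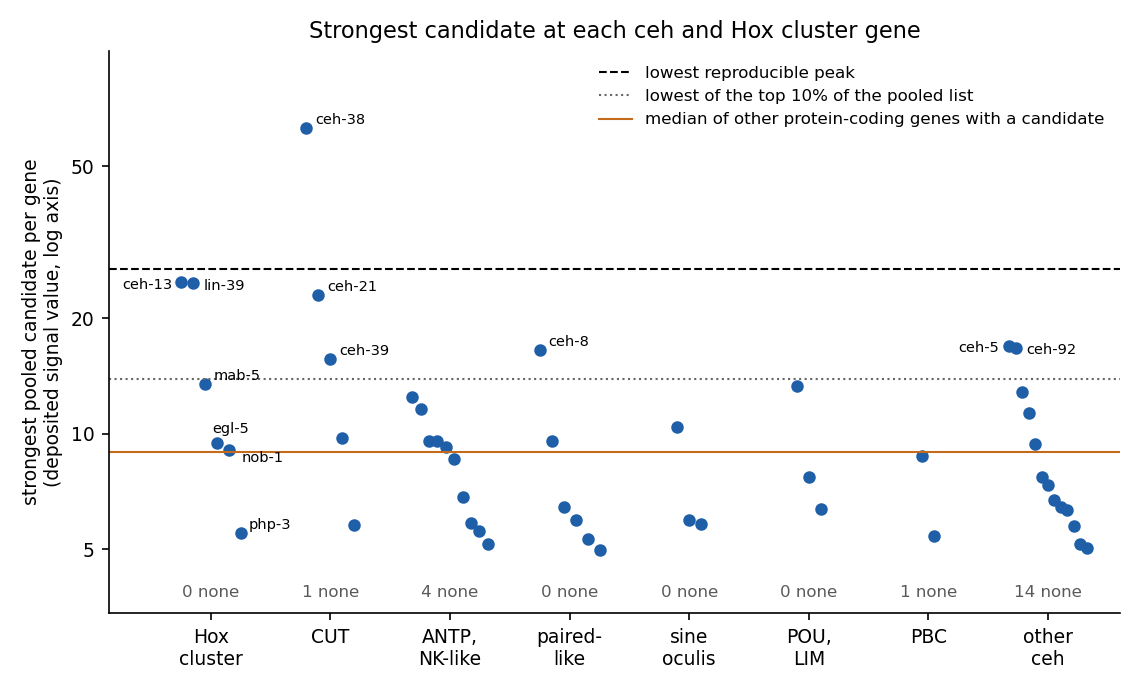
Signal value (log axis) of the strongest pooled candidate at each member, by family; each point is a gene and the grey text counts members without one. Only ceh-38 lies above the dashed line of the lowest reproducible peak, 26.9, and 8 genes, 3 of them CUT and 2 Hox genes, lie above the dotted line of the top 10%, 13.9.

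ceh-82 itself (WBGene00018433; II, 1732232 to 1733291, plus strand) had no candidate in any list. The nearest pooled summit lay 2.05 kb outside its region with a signal of 5.74, below that list's median of 7.30. The nearest of replicate 1 lay at the same distance with 6.55, above its list's median of 5.94, and the nearest of replicate 2 lay 3.26 kb outside with 3.01. Its neighbours ceh-81 and ceh-83 had no pooled candidate. In all 20 members had none in the pooled list, of which 9 had none in any list and 11 had one in replicate 1, replicate 2 or both. Among those 11, ceh-9, ceh-58 and ceh-89 had a summit in both replicate lists. A pooled candidate lay at 70.6% of members, against 64.9% of other genes. The split into 9 and 11 was not counted over other genes. The longest of the 20 was ceh-86, whose region of 7.71 kb held a single entry of 2.84 in replicate 2.

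Members differed in how the replicates treated them. In all 31 members had a candidate in each of the 3 lists, and 34 had one in both replicate lists. ceh-38, ceh-13, lin-39 and ceh-5 were the 4 members with a top-10% entry in every list. At lin-39 and ceh-5 those of replicate 2 lay more than 100 bp from those of the other lists. The rest of the 8 top-10% members of replicate 1 were ceh-8, ceh-21, ceh-39 and ceh-100, whereas in replicate 2 they were ceh-6, ceh-14, ceh-18 and ceh-20. Overlap between lists was not counted over other genes. The counts of 31, 34 and 4, and the differing names, therefore cannot be read as a trait of the members. Over the 105 pairs of a member and a pooled summit in its region, which cover 104 summits since ceh-21 and ceh-39 share 1, replicate 1 had a summit within 100 bp of 57.1%, against 64.5% for other genes. Replicate 2 had one within 100 bp of 33.3%, against 29.5%, and both had one at 15.2%, against 14.9%. The pooled alignments contain both replicates, so their matches are not independent of them.

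Positions within the regions were close to those of other genes in most measures. Of the members' summits 43.8% lay upstream of the gene, 23.8% in exons and 32.4% in introns, against 42.6%, 24.6% and 32.7% for other genes. These parts made up 35.5%, 24.3% and 40.2% of the members' regions, against 38.3%, 28.6% and 33.1% of the regions of other genes. The 500 bp before the start held 11.4% of the members' summits, against 14.6%. The nearest start differed more. For 19.0% of the members' summits (12 to 27.9) another protein-coding gene start was nearer, against 34.8% for other genes. That share lies outside the interval, but the interval treats summits as independent, and many came from the same gene. The difference was not tested, and this share was not taken for the other homeobox genes. Among top-10% entries 1 of the members' 10 lay in those 500 bp (10%, 0.253 to 44.5), against 34.9% for other genes.

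The homeodomain core TAAT occurred on either strand within 50 bp of 56.2% of the members' summits, against 60.9% of those of other genes. In top-10% windows it occurred in 2 of 10 (20%, 2.52 to 55.6), against 43.3%. GC content moved with signal in both sets. It averaged 35.7% ± 9.16 (SD, 105 windows) over all windows of members, against 36.6% ± 9.17 (32301 windows). In the top 10% it was 44.95% ± 11.3 (10 windows), against 43.4% ± 9.62 (3616 windows). Its part in the word counts was not tested. TGATNNAT, a word of the kind bound by Hox proteins with PBC partners, occurred in 13.3% of the members' windows (7.49 to 21.4), against 7.70% for other genes, which lies inside the interval. Of these 14 windows 6 were at Hox genes, among 23 Hox windows (26.1%, 10.2 to 48.4), a count by family that was made after the words had been counted over all members. The other 8 were spread over 2 of 3 PBC windows, 2 of 16 CUT windows, 1 of 6 sine oculis-like windows and 3 of 30 windows of the remaining ceh genes. The Hox windows were 3 at mab-5, 2 at ceh-13 and 1 at lin-39, and that of ceh-13 with the signal of 24.8 is shown above. CTGCGTC, a word without the homeodomain core, occurred in 1.90% of the members' windows, against 2.14%. A match shows that the letters are present, not that a protein binds them.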

How the data were processed

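ChIP-seq for eGFP-CEH-82 was done in 2 biological replicates of L3 larvae. Per the file headers and accompanying notes, the authors made a reproducible list by irreproducible discovery rate, a candidate list on pooled alignments and a candidate list per replicate, on ce11. The authors' signal column is on an unstated scale, and the authors' −log10 q column was constant in the reproducible list. Aligner, caller and thresholds are not given in the sources used here. Depth is unknown. Lists on ce10 were not used.

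Summits were assigned to protein-coding genes of Ensembl release 115 on the same assembly, from 2 kb upstream of the start to the gene end, and 1 summit may count for several genes. Assignment was tested on simulated entries. Bases came from the RefSeq copy of the assembly. Words were sought on both strands within 50 bp of each summit. Python 3.11.15, NumPy 2.4.6, SciPy 1.17.1, pandas 2.3.3 and matplotlib 3.10.9 were used.

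Members, families (41 of 42 family names matched) and comparison lists were chosen with earlier results of these data known. Genes named are ceh-82, the Hox genes, members with a reproducible summit, the 15 of highest pooled signal, the 2 highest of each family and the longest without a candidate; other members are named to complete a count or family. Upstream extent, nearest start, interval overlap, match distance, top share, window size, chromosome X and single replicates were varied.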

Additional observations from a re-analysis of the deposited data

How the results depend on the processing

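Across 10 results and 46 alternatives, 28 values stayed close to those reported and 18 moved. Counts were called close within a factor of 1.5, and shares of summits within the exact 95% interval. Ratios were called close when they differed by less than the SD of the 2 single-replicate ratios. These yardsticks differ in strictness, so the tally is not a measure on a single scale. The count of members with a reproducible summit became 2 with 5 kb upstream, adding ceh-5 with a peak of 52.05 at 4873 bp before its start, and 2 with whole intervals, adding ceh-8 with a peak of 30.6 beyond its end. The share of other genes rose too, from 4.73% to 6.99% and 5.18%. The ratio of summits per kb, members over other genes, was 0.883, and became 1.10 with only summits nearest to their own start and 1.01 without chromosome X. With 1 replicate at a time it ran from 0.853 to 1.01, so members were not steadily below other genes. The ratio of median strongest signals was 0.966, and became 0.996 with 500 bp upstream, 0.915 with 5 kb, 0.919 with nearest starts and 0.892 with −log10 q. With 1 replicate at a time it ran from 0.996 to 1.03. The 8 members with a top-10% entry became 4 with 500 bp upstream, 5 with nearest starts and 4 with the top 5%. Under these rules the share of other genes fell too, from 14.6% to 10.5%, 9.81% and 8.61%. The 12 met by both replicates became 7 with 500 bp upstream. The upstream share of 43.8% became 60% among top-10% summits (6 of 10, 26.2 to 87.8), while that of other genes went from 42.6% to 66.3%. In windows of 100 bp to each side TAAT stood at 81%, against 83.3% for other genes. TGATNNAT stood at 22.9% (15.2 to 32.1), against 15% for other genes. That 15% lies just outside the interval, whereas in the narrower windows the share of other genes lay inside. Many windows come from the same gene, and the difference was not tested. Wider windows hold more words by construction. The counts of reproducible summits and of summits met by both replicates cannot be recomputed without a replicate. No paired analysis was possible because there is only 1 group. Unknown depth limits what a missing candidate can show.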

Other observations

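The stretches between Hox genes that lie back to back extend beyond the 2 kb counted above, and they were examined after the members' values had been seen. Summits within 2 kb of a start, among them that of 24.8 near ceh-13, are counted both above and here. The 19.0 kb between the starts of lin-39 and ceh-13 held 9 pooled summits, or 0.473 per kb, against 0.299 per kb over the genome, with 8 summits in replicate 1 and 9 in replicate 2 and no reproducible peak. Genes outside the set on chromosome III, which stands high, had 0.360 pooled summits per kb of region. Besides the entry of 24.8 near ceh-13, a pooled summit 2.63 kb before the start of ceh-13 had a signal of 22.1, with 15.8 in replicate 1 and 5.85 in replicate 2. Another, 9.03 kb before the start of lin-39, had 15.9, with 13.7 in replicate 1 and no summit of replicate 2 close by. The 30.9 kb between mab-5 and egl-5 held 8 pooled summits, or 0.259 per kb, of which the highest was 13.5, and again no reproducible peak. Replicate 1 had 9 there, or 0.291 per kb against 0.299 over the genome, and replicate 2 had 10, or 0.323 per kb against 0.225, so the lists did not place this stretch on the same side of the genome's density.

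In the pooled list the members on chromosome II stood low and those on III high. Pooled candidates were found at 5 of 13 members on II, against 61.4% of other genes there, and at 13 of 13 on III, against 76.1%. The single replicates did not both show this. On II replicate 1 had 6 of 13, against 61.4%, and replicate 2 had 8 of 13, against 55.4%. On III replicate 1 had 10 of 13, against 75.5%, and replicate 2 had 11 of 13, against 69.8%. The 6 genes from ceh-81 to ceh-87, all on II and including ceh-82, had no candidate in the pooled list or in replicate 1, and 2 of them had one in replicate 2. This split was noticed in the data and was not tested.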
